A study of Mus musculus with 8 samples.

Results

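Mitochondrial ribosomal protein genes were described in E18.5 mouse hearts. They were chosen by name: every non-control probe of the array whose accession maps to a RefSeq gene with a symbol that starts with Mrpl or Mrps and a number was kept, whatever its values. This gave 116 probes of 78 genes, out of 41174 probes in all, 28223 of which could be given the name of 1 of 19096 genes. All 78 protein-coding symbols of this form in the RefSeq table are on the array, 49 of them with 1 probe, 20 with 2 and 9 with 3.

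Hearts came from 4 wild-type (WT) embryos and 4 embryos labelled SIRT1 KO, a genotype that the methods of the study give as a germ-line knockout, in the whole body, of the NAD+-dependent deacetylase SIRT1. Both groups were C57BL/6 by the labels (C57BL/6J by the methods of the study) and E18.5, came from matings of SIRT1 heterozygous parents, had mothers on chow and received no treatment. Embryos of both sexes were used in the study, and hearts were not grouped by sex here. Total RNA of each heart was put on 1 one-color Agilent whole mouse genome array, and the question of the arrays was which transcripts differ between the genotypes. Values below are log2 of the processed spot intensity minus the 75th percentile of the array, so a value of 0 is a spot at that percentile, and a negative difference means a lower signal in the hearts labelled SIRT1 KO. Each difference is a log2 fold change, SIRT1 KO minus WT.

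Mitochondria keep their own ribosome, which translates the few proteins encoded in mitochondrial DNA, all of them subunits of the oxidative phosphorylation complexes. Its ribosomal RNAs come from the mitochondrial genome, whereas all of its proteins are encoded in the nucleus, made in the cytosol and imported. Some of these proteins have a counterpart in bacterial ribosomes, and others are particular to mitochondria. The heart depends strongly on oxidative phosphorylation, and inherited defects of several of these proteins, among them those of MRPL3, MRPL44, MRPS14 and MRPS22, can cause cardiomyopathy.

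Across all 8 arrays the limits were these. The WT arrays lie on 1 slide and the arrays labelled SIRT1 KO on the other, each slide scanned on its own day, so genotype, slide and scan day cannot be told apart. The 75th percentile was 939 to 1033 intensity units on the WT arrays and 777 to 906 on the others, the share of probes well above background was 59.5% to 64.9%, and no spot was saturated. The low ends, 777 and 59.5%, are those of SIRT1 KO replicate 3, whereas the other SIRT1 KO arrays had a 75th percentile of 863 to 906. Its median intensity was also the lowest (66.2, beside 76.1 to 83.9 on the other arrays). Whether this bears on its values below was not tested. On the 2 probes of Sirt1 the log2 fold change was 0.54 (A_52_P358612, WT -0.14, 0.32, 0.00 and 0.00, SIRT1 KO 0.64, 0.50, 0.43 and 0.75, limma adjusted p = 0.0323) and -0.11 (A_51_P141152, WT -0.27, -0.21, -0.21 and -0.12, SIRT1 KO -0.29, -0.42, -0.52 and -0.02, limma adjusted p = 0.589). Neither was lower past the threshold, and a probe outside the deleted part checks nothing, so genotypes are those of the labels. All 18 cardiomyocyte markers were well above background, with a summed log2 signal of 11.35 to 11.47 in WT and 11.36 to 11.60 in SIRT1 KO (highest in replicate 3) and none past the threshold. SIRT1 KO replicate 3 stood apart from the other 3 hearts labelled SIRT1 KO for the genes described here, so the medians of the family, its classes and the related families are given with and without it.

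The promoters of 4 of the genes are shown first, because they carry letters shared by many of the family. They are the windows from 250 bases before to 50 bases after the RefSeq start, in the GRCm38.p6 build, written 5′ to 3′ on the strand of the gene. Capitals mark letters that match the core of the binding motif of NRF1 (GCGCANGCG), of the ETS family, to which GABP (also called NRF-2) belongs (CCGGAAG), or of YY1 (AANATGGCG), all searched on both strands and not overlapping in the windows shown. NRF1 and GABP are known as activators of nuclear genes for mitochondrial proteins. Mrps23, shown because it has the most negative log2 fold change of the family, lies at chr11:88204138-88204437 on the plus strand, with an ETS core just after its start.
Mrps23: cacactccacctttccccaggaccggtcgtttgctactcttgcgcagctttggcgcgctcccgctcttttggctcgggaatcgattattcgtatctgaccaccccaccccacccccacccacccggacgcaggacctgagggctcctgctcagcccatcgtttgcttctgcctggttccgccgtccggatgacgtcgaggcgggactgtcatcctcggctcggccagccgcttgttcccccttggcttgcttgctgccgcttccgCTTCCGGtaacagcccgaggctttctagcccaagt
Mrps27, among the lower genes whose genotypes did not overlap, lies at chr13:99344536-99344835 on the plus strand and has both an ETS core before its start and a YY1 core after it.
Mrps27: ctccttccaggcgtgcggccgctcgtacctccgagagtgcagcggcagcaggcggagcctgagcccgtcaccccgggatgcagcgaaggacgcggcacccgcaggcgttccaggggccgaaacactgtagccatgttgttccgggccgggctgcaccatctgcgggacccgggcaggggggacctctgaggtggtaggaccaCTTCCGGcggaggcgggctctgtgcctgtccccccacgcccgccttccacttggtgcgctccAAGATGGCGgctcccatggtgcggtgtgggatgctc
Mrps11, at chr7:78782881-78783180 on the plus strand, is shown because it shares its promoter with another member: the start of Mrpl46 lies 42 bases before that of Mrps11, on the other strand. Its capitals are a YY1 core.
Mrps11: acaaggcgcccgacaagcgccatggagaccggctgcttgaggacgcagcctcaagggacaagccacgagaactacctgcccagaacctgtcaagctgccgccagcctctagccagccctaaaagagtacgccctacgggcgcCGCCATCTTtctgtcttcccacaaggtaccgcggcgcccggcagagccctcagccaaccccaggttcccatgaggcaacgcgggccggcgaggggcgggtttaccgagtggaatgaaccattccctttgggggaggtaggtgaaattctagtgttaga
Mrpl12, which encodes a protein of the ribosomal stalk, lies at chr11:120484387-120484686 on the plus strand and has an NRF1 core.
Mrpl12: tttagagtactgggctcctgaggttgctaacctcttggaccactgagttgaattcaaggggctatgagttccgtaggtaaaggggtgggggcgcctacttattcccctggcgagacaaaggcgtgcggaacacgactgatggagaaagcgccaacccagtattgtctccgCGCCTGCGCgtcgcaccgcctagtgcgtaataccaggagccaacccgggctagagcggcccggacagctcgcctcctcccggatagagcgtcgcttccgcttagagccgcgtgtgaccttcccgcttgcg

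A promoter window was given for 69 of the 78 genes. The NRF1 core was present in 16 of them (23.2%), against 14.2% of the 10825 genes with a tested probe and a window and 7.03% of all 27025 genes with a window. The ETS core was present in 26 (37.7%), against 18.54% and 9.93%, and the YY1 core in 11 (15.9%), against 5.45% and 2.76%. At least 1 of these cores was present in 43 windows (62.3%), against 32.7% of the genes tested. A match is a description of these letters and not a bound site, and a window without one says nothing about the factor.

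The family also often lay head to head with another gene, transcribed away from it with the 2 starts at most 1000 bases apart. This held for 26 of the 69 genes (37.7%), against 18.4% of the genes tested and 12.3% of all genes with a window. Neighbours were Twnk, the mitochondrial DNA helicase, for Mrpl43, Sars2, the mitochondrial seryl-tRNA synthetase, for Mrps12, Ndufb5, a complex I subunit, for Mrpl47, and Ptcd2 for Mrps27. Of 21 tested neighbours outside the family, 11 had a negative log2 fold change, with a median of -0.01 and none past the threshold, and 1 pair, Mrpl46 and Mrps11, was made of 2 members. Pairs were of both kinds, with like and with opposite signs. Mrpl43 had a log2 fold change of -0.23 beside 0.05 for Twnk, Mrps5 of -0.26 beside 0.22 for Zfp661, and Mrpl46 of -0.28 beside -0.22 for Mrps11.

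Of the 116 probes, 115 were tested, which needs a signal well above background on 4 arrays or more, and 111 had one on all 8. The probe left out is the dimmer probe of Mrpl41 (A_51_P338377), which stood clear of background on none of the arrays. The dimmer probes of Mrpl57 and Mrpl11 were well above background on 7 and 6 arrays, and the brighter probe of Mrpl38 and the probe of Mrpl39 lack a value in SIRT1 KO replicate 1, where the spot was marked as an outlier. No probe was tested through 1 genotype alone.

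Most of the family had a slightly lower signal in the hearts labelled SIRT1 KO, and no single gene passed the test. Of the 115 probes, 102 had a negative log2 fold change and 13 a positive one, whereas 48.3% of the 25615 probes tested on the array were negative. The median over the family was -0.13, or 91.6% of the WT signal, with quartiles of -0.18 and -0.06 and a range of -0.46 to 0.26, beside a median of 0.01 over all probes tested. Fewer cells rich in these transcripts and less of them per cell cannot be told apart in RNA from whole hearts.

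At an adjusted p of 0.05 with limma, 0 of the 115 probes passed, the smallest adjusted p being 0.0797. Over all probes tested 4.88% passed, 0.91% lower and 3.97% higher in the hearts labelled SIRT1 KO. At an unadjusted p under 0.05 there were 22 lower probes and 1 higher probe of the family, 20% of it, beside 21.5% of all probes (8.1% lower and 13.4% higher). The methods' analysis of variance, run probe by probe with genotype as its factor, gave 25 at that level and 0 once adjusted by Benjamini-Hochberg, beside 20.1% and 2.13% of all probes. The genotypes did not overlap in 15 probes (13.0%), 14 of them lower and 1 higher, beside 13.7% of all probes (5.11% lower and 8.63% higher). The shares past both rules, whatever the direction, were near those of the array. The median standard error of the log2 fold change of a single probe was 0.09, beside a family median of -0.13. It is no measure of the error of that median. With 1 heart left out at a time, 78 of the 115 log2 fold changes moved by over 1.5 times at least once and 20, all of them between -0.06 and 0.06, changed sign. Of the 26 with a size over 0.2, 7 moved by that much and 0 changed sign.

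**Figure D1:**
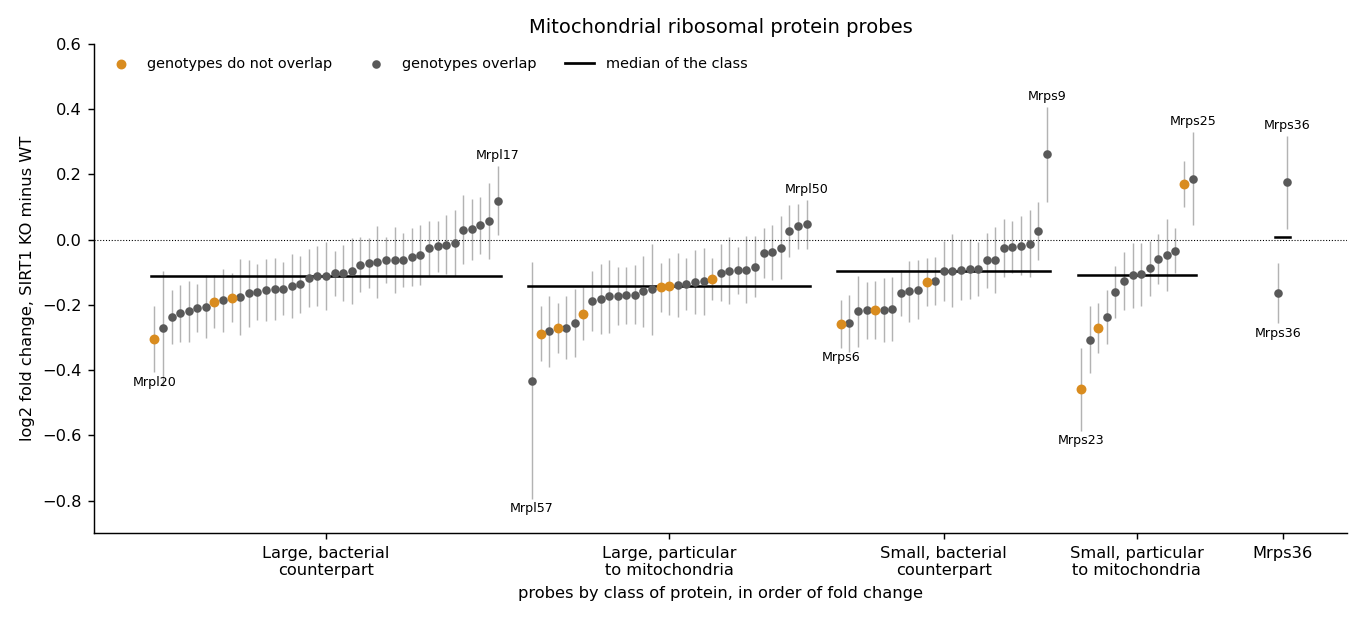
Log2 fold change (vertical axis, SIRT1 KO minus WT, bars are 1 standard error from limma) of the 115 tested probes of mitochondrial ribosomal protein genes, ordered within classes of protein (horizontal axis), from 4 hearts per genotype. Orange points are the 15 probes whose genotypes do not overlap, black lines are class medians, which lie between -0.14 and -0.10 in the 4 ribosomal classes, and gene names mark the lowest and highest probe of a class.

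The lower signal ran through both subunits of the ribosome. Large subunit proteins with a bacterial counterpart had a median log2 fold change of -0.11 over 41 probes, 36 of them negative. Large subunit proteins particular to mitochondria had -0.14 over 33 tested probes, 30 of them negative. In the small subunit the medians were -0.10 over 25 probes with a bacterial counterpart, 23 of them negative, and -0.11 over 14 probes particular to mitochondria, 12 of them negative. For the classes only the omission of SIRT1 KO replicate 3 is given. Without that heart the 4 class medians were, in the same order, -0.13, -0.18, -0.16 and -0.17, with 37, 31, 23 and 12 probes negative. Mrps36, which is named for the mitochondrial ribosome but encodes a component of the 2-oxoglutarate dehydrogenase complex, was set apart, and its 2 probes had opposite signs.

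Genes with several probes gave a look at the same transcript more than 1 time, although these probes share the RNA of the same hearts. Of the 28 genes with several tested probes, 19 had all probes negative, 1 (Mrpl17) had both positive, and 8 had mixed signs. On the brightest probe of each gene, 72 of 78 genes were negative, with a median of -0.12, beside a median of -0.01 over the brightest probes of 13594 named genes. The 6 genes with a positive brightest probe were Mrpl16, Mrpl17, Mrpl24, Mrpl50, Mrpl54 and Mrps36.

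The family's level also differed among the hearts labelled SIRT1 KO. The median deviation of the 115 probes from the WT mean was 0.04, -0.02, -0.01 and 0.00 in WT replicates 1 to 4. In the hearts labelled SIRT1 KO it was -0.12, -0.18, 0.02 and -0.18 in replicates 1 to 4. Replicates 1, 2 and 4 thus lay below all WT hearts, and replicate 3 lay among them. In replicate 3, 52 probes lay below the WT mean, whereas 87 of 113 did in replicate 1, 105 of 115 in replicate 2 and 102 of 115 in replicate 4. Of the 115 probes, 86 had their highest SIRT1 KO value in replicate 3. The median over all probes tested stayed between 0.01 and 0.02 in these 4 hearts.

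Related gene families were also highest in replicate 3. Proteins of the cytosolic ribosome, measured on 118 tested probes, had median deviations of -0.09, -0.10, 0.08 and -0.10 in SIRT1 KO replicates 1 to 4, and nuclear subunits of oxidative phosphorylation, on 101 tested probes, had 0.00, -0.12, 0.14 and -0.16. Over both genotypes their median log2 fold changes were -0.07 (77 of 118 negative) and -0.05 (66 of 101 negative), and without replicate 3 they were -0.10 (86 negative) and -0.12 (79 negative). Among these, 4 of the 118 probes of the cytosolic ribosome passed the threshold, those of Rps3a1 lower and of Rplp0, Rpl7a and Rps21 higher, and none of oxidative phosphorylation. Over all probes tested 0.91% passed lower and 3.97% higher. The difference between these families and the mitochondrial ribosome was not tested.

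**Figure D2:**
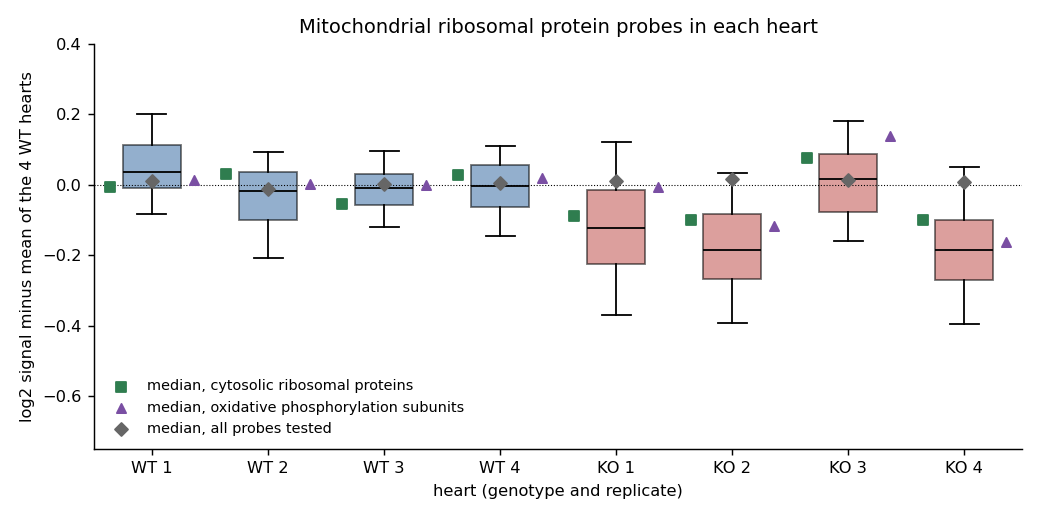
Deviation of each tested mitochondrial ribosomal protein probe from its mean in the 4 WT hearts (vertical axis, log2), in each heart (horizontal axis), as boxes from the lower to the upper quartile with the median as a line and whiskers at the 5th and 95th percentile. Symbols are medians of cytosolic ribosomal proteins, oxidative phosphorylation subunits and all probes tested, and KO 3, with a median of 0.02, lies with the WT hearts, whereas KO 1, KO 2 and KO 4 lie at -0.12 to -0.18.

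Without SIRT1 KO replicate 3 the median log2 fold change of the family was -0.17, with 104 of 115 probes negative. Then 10 probes passed the threshold with limma, all lower, beside 1.72% of all probes lower past it in the same fit. They belong to Mrps23 (both probes, -0.56 and -0.38), Mrpl46 (-0.38), Mrpl20 (-0.38), Mrpl58 (-0.35), Mrps30 (-0.34), Mrpl40 (-0.32), Mrps27 (-0.32), Mrps33 (A_52_P579658, -0.30) and Mrpl47 (-0.30), with adjusted p from limma between 0.027 and 0.0489. Leaving out any other single heart gave 0 calls in the family. Without SIRT1 KO replicate 2 or 4 the family median was nearer to WT, at -0.10, with 99 and 92 of 115 probes negative. Array weights were lowest for SIRT1 KO replicates 3 (0.534) and 4 (0.530). The fit without replicate 3 assumes that the other 3 hearts stand for the genotype, and the choice of the heart followed its values.

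Markers of other cell types and of proliferation moved among the same hearts. The 10 proliferation markers, all tested, had a median log2 fold change of -0.26 with none past the threshold, and their summed log2 signal was 6.51 to 6.79 in WT and 6.43, 6.51, 6.79 and 6.01 in SIRT1 KO replicates 1 to 4, highest again in replicate 3. Of 11 hepatocyte markers, 10 were on the array, 8 were tested with a median log2 fold change of 1.32 and none passed, with summed signals of 3.57 to 4.88 in WT and 7.004, 4.32, 3.81 and 6.07 in SIRT1 KO. Of 8 thymocyte markers 2 were tested, and of 6 lung epithelium markers none was. None of the macrophage, endothelial, fibroblast and epicardial markers passed, 1 of 8 erythroid markers tested was higher (Hbb-y, an embryonic globin, by 0.92 on the log2 scale, limma adjusted p = 0.00782), and 1 of 5 brown adipocyte markers tested was lower (Dio2, a deiodinase, at -0.80, limma adjusted p = 0.00839). The part of proliferating cells or of other tissue in the family's lower signal was not tested.

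Brightness moved with the fold change over the array, and most of the family is bright. Probes were put into 10 classes by their mean signal. Over all probes the median difference went from 0.17 in the dimmest class to -0.03 in the brightest, where 60.4% of probes were negative. In the 2 brightest classes together, 60.0% of 5123 probes were negative with a median of -0.03, whereas 79 of the 86 probes of the family found there were negative with a median of -0.12.

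**Figure D3:**
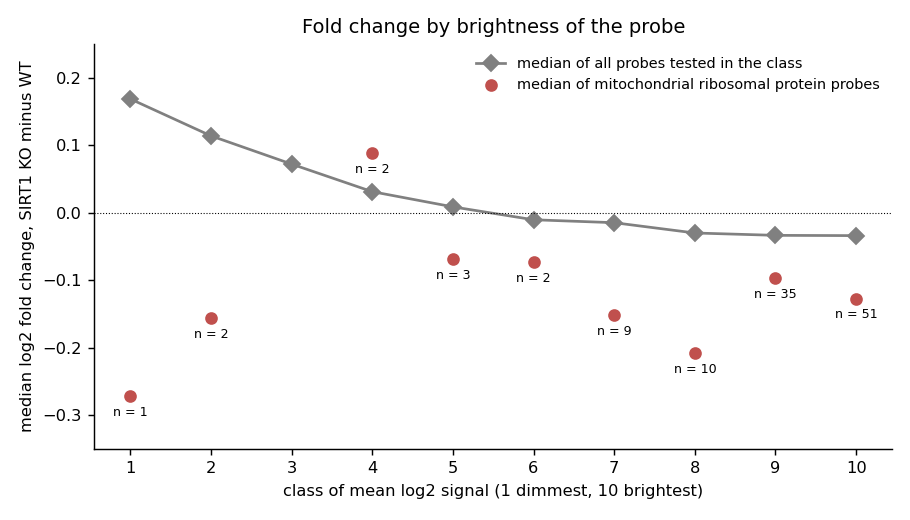
Median log2 fold change (vertical axis, SIRT1 KO minus WT) by class of mean log2 signal (horizontal axis, 10 classes of all probes tested, dimmest to brightest). Grey diamonds are all probes tested, red circles the mitochondrial ribosomal protein probes with their number, which in the 2 brightest classes lie at -0.10 and -0.13 where all probes lie at -0.03.

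In the small subunit, Mrps23, a protein particular to mitochondria, was furthest from WT. On its brighter probe (A_52_P5420) the log2 signal was 2.46, 2.21, 2.39 and 2.18 in the WT hearts and 1.94, 1.72, 2.14 and 1.60 in the hearts labelled SIRT1 KO. The genotypes did not overlap, with replicate 3 the highest SIRT1 KO heart, just under the lowest WT heart. The log2 fold change was -0.46 (limma standard error, SE, 0.13 and adjusted p = 0.0797, exact two-sided permutation p = 0.0286, the smallest that 4 against 4 hearts allow), which is 72.8% of WT. Its other probe (A_51_P338542) read 2.15, 1.99, 2.19 and 2.33 in WT and 1.82, 1.77, 2.08 and 1.77 in SIRT1 KO. The log2 fold change there was -0.31 (limma adjusted p = 0.132), and the genotypes overlapped in replicate 3 alone.

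Mrps27, a pentatricopeptide repeat protein of the small subunit, read 1.29, 1.23, 1.35 and 1.29 in WT and 0.99, 0.90, 1.16 and 1.04 in SIRT1 KO. All 4 WT hearts lay above all 4 others, at a log2 fold change of -0.27 (limma SE 0.08 and adjusted p = 0.0852). Mrps6, which has a bacterial counterpart, read 4.31, 4.35, 4.20 and 4.26 in WT and 4.02, 4.04, 4.11 and 3.92 in SIRT1 KO on its brighter probe (A_52_P58257), again with no overlap, at -0.26 (limma SE 0.07 and adjusted p = 0.0806). Its second probe (A_51_P359374) did not follow: it read 2.57, 2.64, 2.57 and 2.71 in WT and 2.71, 2.72, 2.55 and 2.41 in SIRT1 KO, a difference of -0.02. The direction of Mrps6 therefore rests on 1 of its probes.

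Other small subunit genes whose genotypes did not overlap were Mrps17, with a bacterial counterpart, at -0.13 (-0.08 without SIRT1 KO replicate 4), and Mrps18b at -0.22 on its single probe. The brightest probe of Mrps5, with a bacterial counterpart, and that of Mrps7 had unadjusted p under 0.05 with limma, and so did Mrps11, at log2 fold changes of -0.26, -0.16 and -0.22. The second probe of Mrps7 (A_51_P193302) did not follow, at 0.03. Its deviations from the WT mean were -0.12, -0.04, 0.09 and 0.18 in SIRT1 KO replicates 1 to 4. All 3 probes of Mrps5 were lower, at -0.26, -0.22 (-0.15 without SIRT1 KO replicate 2) and -0.22 (-0.14 without WT replicate 2). Mrps12, part of the decoding centre, read 4.18, 4.02, 4.00 and 4.06 in WT and 3.91, 3.88, 4.05 and 3.93 in SIRT1 KO, a log2 fold change of -0.13 (limma adjusted p = 0.359) in which replicate 3 alone lay among the WT hearts, and -0.16 without that heart.

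In the large subunit, Mrps30, which despite its name sits there and is particular to mitochondria, read 3.43, 3.24, 3.27 and 3.32 in WT and 3.08, 2.92, 3.17 and 2.93 in SIRT1 KO. The genotypes did not overlap, at a log2 fold change of -0.29 (limma SE 0.08 and adjusted p = 0.0907), or 81.9% of WT. Mrpl40, whose human gene lies in the region deleted in DiGeorge syndrome, read 3.71, 3.71, 3.64 and 3.71 in WT and 3.40, 3.31, 3.58 and 3.40 in SIRT1 KO on its brightest probe (A_51_P420630). That is a log2 fold change of -0.27 (limma SE 0.08 and adjusted p = 0.0829) with no overlap, and its other probes lay at -0.19 and -0.17, where replicate 3 overlapped WT. Mrpl20, with a bacterial counterpart, read 5.13, 5.26, 5.08 and 5.07 in WT and 4.87, 4.75, 5.06 and 4.64 in SIRT1 KO, a log2 fold change of -0.30 (limma SE 0.10 and adjusted p = 0.134). There the highest SIRT1 KO heart, replicate 3, lay level with the lowest WT heart, closer than the spread within either genotype.

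**Figure D4:**
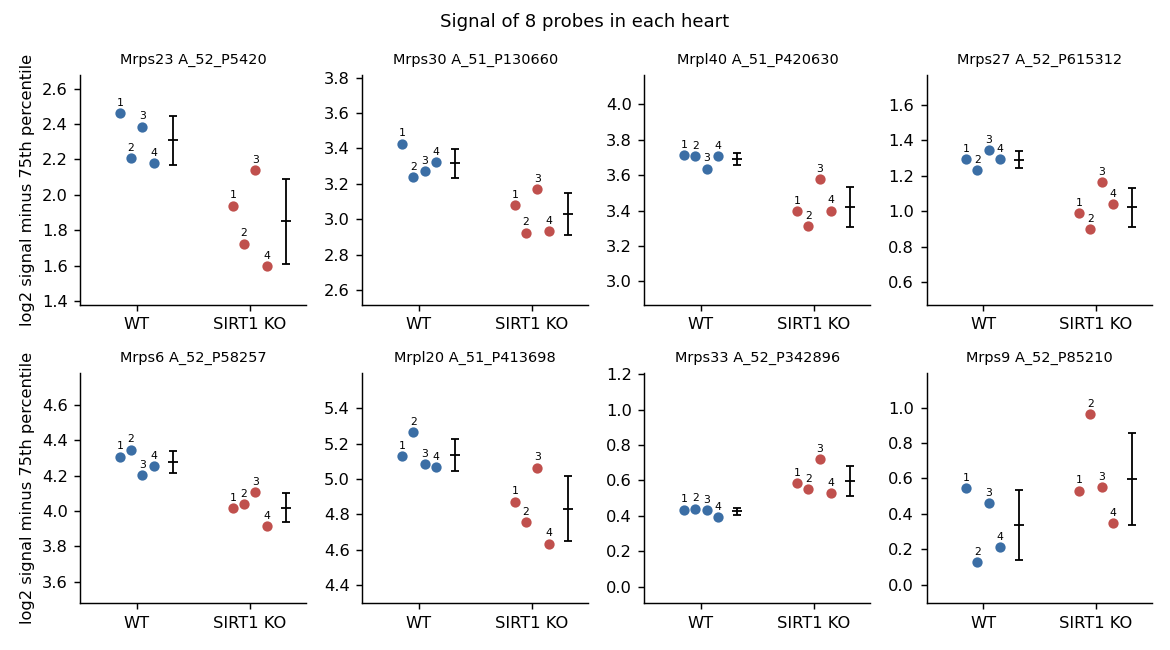
Log2 signal minus the 75th percentile of the array (vertical axis, each panel spanning the same 1.3 units) of 8 probes in 4 WT and 4 SIRT1 KO hearts (horizontal axis), with replicate numbers at the points and mean ± SD as bars. In the 6 lower probes replicate 3 is the highest of the hearts labelled SIRT1 KO, and the probes of Mrps33 and Mrps9 are among the 5 with the most positive log2 fold change.

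Genes of the stalk, where translation factors bind, were lower in the hearts labelled SIRT1 KO without passing the test. Mrpl12, the stalk protein itself, read 5.62, 5.56, 5.52 and 5.71 in WT and 5.40, 5.38, 5.53 and 5.20 in SIRT1 KO, a log2 fold change of -0.23 (limma adjusted p = 0.181). Mrpl10, which anchors it, was at -0.21 (limma adjusted p = 0.258), and -0.13 without SIRT1 KO replicate 1. Mrpl11, next to them, read 5.15, 5.12, 5.05 and 5.06 in WT and 4.97, 4.91, 5.01 and 4.78 in SIRT1 KO on its brighter probe, a log2 fold change of -0.18 with no overlap. Replicate 3 was the highest of the hearts labelled SIRT1 KO for all 3 genes. The dimmer probe of Mrpl11 lay at -0.27 (-0.09 without SIRT1 KO replicate 1), but was near background and turned positive with another background correction.

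Further large subunit probes whose genotypes did not overlap were those of Mrpl43 (-0.23), Mrpl13 (-0.19), Mrpl38 (-0.15, from 3 SIRT1 KO hearts), Mrpl53 (-0.14, and -0.07 without SIRT1 KO replicate 4) and Mrpl42 (-0.12). Of these Mrpl13 has a bacterial counterpart, and the others are particular to mitochondria. Mrpl42 differed by little, but its WT values of 5.48, 5.57, 5.49 and 5.48 and SIRT1 KO values of 5.39, 5.31, 5.44 and 5.40 were tight, so that even this difference left a gap between the genotypes. Mrpl58, which releases peptides from stalled ribosomes, read 4.75, 4.65, 4.60 and 4.59 in WT and 4.34, 4.38, 4.66 and 4.19 in SIRT1 KO. Its log2 fold change was -0.26, and replicate 3 was higher than 3 of the WT hearts. Mrpl46 had the same shape, with 2.42, 2.33, 2.45 and 2.52 in WT and 2.05, 2.09, 2.46 and 2.004 in SIRT1 KO, a log2 fold change of -0.28. The dimmer probe of Mrpl57 had a log2 fold change of -0.43, with a standard error of 0.36, and rests on WT replicate 1, at -3.05 where the other WT hearts were between -4.84 and -4.51. Without that heart it was -0.04, while the brighter probe of Mrpl57 lay at -0.09.

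None of the genes tied to inherited cardiomyopathy passed the test. The 3 probes of Mrpl3 lay at -0.03, -0.08 and -0.02, and under 2 normalizations the first and last of them were slightly positive. The 3 probes of Mrpl44, which has a ribonuclease III fold, lay at -0.10, -0.08 and -0.15, and with 1 heart left out at a time each stayed negative, between -0.27 and -0.03. Mrps22 read 2.79, 2.78, 2.77 and 2.62 in WT and 2.61, 2.58, 2.84 and 2.58 in SIRT1 KO, a log2 fold change of -0.09 (limma adjusted p = 0.584), with 1 heart apart in each genotype, and without SIRT1 KO replicate 3 it was -0.15. Mrps14, a neighbour of the decoding centre, was at -0.21 (limma adjusted p = 0.252), reading 2.74, 2.69, 2.70 and 2.84 in WT and 2.69, 2.51, 2.63 and 2.29 in SIRT1 KO. The limma interval of this difference was -0.43 to 0.01, and it was -0.13 without SIRT1 KO replicate 4, the lowest heart.

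Against the family's direction, 13 probes were higher, and 8 of them belong to genes with another probe that was lower. The one probe above WT without overlap was the dimmest of 3 for Mrps33 (A_52_P342896), which read 0.43, 0.44, 0.43 and 0.39 in WT and 0.58, 0.55, 0.72 and 0.53 in SIRT1 KO. Its log2 fold change was 0.17 (limma SE 0.07 and adjusted p = 0.2). The other probes of Mrps33 lay at -0.13 and -0.24, so this gene has no single direction on the array. The largest positive value was that of the dimmer probe of Mrps9 (A_52_P85210), with 0.55, 0.13, 0.46 and 0.21 in WT and 0.53, 0.96, 0.55 and 0.35 in SIRT1 KO. The genotypes overlapped, and the difference of 0.26 (limma adjusted p = 0.338) was carried most by replicate 2 (0.14 without it), while the brighter probe of Mrps9 was at -0.09. Probes of Mrps25 lay at 0.19 (0.10 when WT replicate 2 was left out, 0.30 when SIRT1 KO replicate 3 was) and -0.16, and those of Mrps36 at 0.18 and -0.16. On the higher probe of Mrps36 (A_51_P190697) SIRT1 KO replicate 2 stood at 4.18, and the other 3 hearts of that genotype were between 3.52 and 3.70, beside a WT range of 3.42 to 3.65. Without that heart the log2 fold change was 0.03. Mrpl17 was the gene with both probes higher, at 0.04 and 0.12. The second of these was negative under each of the 4 other scalings tried, between -0.10 and -0.01.

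The rest of the machinery that makes or serves the mitochondrial ribosome was described from a list of 100 other genes, of which 94 were tested on their brightest probe. Their median log2 fold change was -0.07, with 66 negative and 28 positive, and 2 passed the threshold, both lower, beside 0.897% lower and 3.69% higher of the brightest probes of all 13594 named genes. Of the 137 tested probes of these genes, 99 moved by over 1.5 times at least once with 1 heart left out, and 43 changed sign. Gars, the glycyl-tRNA synthetase of both cytosol and mitochondria, read -0.40, -0.74, -0.54 and -0.58 in WT and -1.07, -1.20, -1.11 and -1.08 in SIRT1 KO. The log2 fold change was -0.55 (limma SE 0.09 and adjusted p = 0.00831), with no overlap, and it passed whichever of the 8 hearts was left out. Tfb1m, which methylates the ribosomal RNA of the small subunit, read 2.02, 1.78, 1.95 and 2.02 in WT and 1.67, 1.55, 1.60 and 1.56 in SIRT1 KO. Its log2 fold change was -0.35 (limma SE 0.08 and adjusted p = 0.0383), with no overlap and no lift in replicate 3, but it stayed past the threshold in 1 of the 8 fits that leave out a heart, the one without WT replicate 2. Tfb1m also missed the threshold with the methods' analysis of variance (adjusted p = 0.0552). With limma it did so without the filter on dim probes (adjusted p = 0.0805) and with the replicate number as a block (adjusted p = 0.0576).

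No elongation factor passed the test. Tufm, which brings aminoacyl-tRNA to the ribosome, read 5.52, 5.44, 5.57 and 5.60 in WT and 5.36, 5.31, 5.40 and 5.20 in SIRT1 KO, a log2 fold change of -0.21 (limma adjusted p = 0.145). Gfm2, which acts in ribosome recycling, was at -0.22 and also did not overlap, and Gfm1, which moves the ribosome along the mRNA, was at -0.20 with overlap. Tsfm, the exchange factor of Tufm, was at -0.11, and Guf1, another elongation factor, was at 0.07 on its brighter probe and -0.25 on the other (limma adjusted p = 0.157). Of the 11 tested factors of initiation, elongation, termination and recycling, 9 were negative with a median of -0.05 (-0.11 without SIRT1 KO replicate 3), and of 25 for ribosome assembly and rRNA modification, 20 were negative with a median of -0.09 (-0.14 without it). Taco1, an activator of translation of a cytochrome c oxidase subunit, and Mtpap, the mitochondrial poly(A) polymerase, lay at -0.22 and -0.17 without overlap, and the dimmer probe of Mtpap lay at -0.01. In all, 6 of the 94 genes (6.38%) were lower without overlap and none was higher, beside 5.61% lower and 8.39% higher of the named genes on their brightest probes. Of 5 mitoribosomal proteins with other names 4 were negative, with a median of -0.03 (-0.06 without SIRT1 KO replicate 3). Dap3 was at 0.11 (0.07 without WT replicate 1) and Chchd1 at -0.19, the latter carried by SIRT1 KO replicate 4 (-0.04 without it), and Gadd45gip1, Aurkaip1 and Ptcd3 lay between -0.03 and -0.01. Their dimmer probes, where there was one, lay at 0.17 for Dap3 (0.10 without WT replicate 1), -0.33 for Chchd1 (-0.21 without SIRT1 KO replicate 4), -0.12 for Gadd45gip1 and -0.26 for Ptcd3 (-0.14 without WT replicate 2).

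Genes of mitochondrial transcription and replication had a median log2 fold change of 0.02 over 10 tested, with 4 negative, and of -0.02 with 6 negative without SIRT1 KO replicate 3. Tfam, which packages mitochondrial DNA, lay at -0.14 on its brighter probe (limma adjusted p = 0.394, and -0.19 to -0.09 with 1 heart left out, the least without SIRT1 KO replicate 1) and at -0.26 on the other (limma adjusted p = 0.154). Polrmt, the mitochondrial RNA polymerase, was at 0.09 (limma adjusted p = 0.702), and at -0.01 without WT replicate 2. Of the nuclear regulators, whose motifs are shown above, Nrf1 was at -0.08, Gabpa at 0.08, Gabpb1 at -0.23 and Yy1 at -0.07 on their brightest probes, and Ppargc1a, a coactivator of mitochondrial genes, at -0.14, none of them past the threshold. Single hearts moved these values: Nrf1 was at -0.13 without WT replicate 4, Gabpb1 at -0.13 without SIRT1 KO replicate 1, Yy1 at 0.00 without SIRT1 KO replicate 2, and Ppargc1a at -0.24 when WT replicate 2 was left out, or -0.07 when SIRT1 KO replicate 2 was. Their other probes lay at -0.22 for Nrf1, -0.10 and 0.01 for Gabpa, -0.27 for Gabpb1 and 0.00 for Ppargc1a. On every probe of the list, the dimmer probe of Esrrg (A_51_P224192), an orphan nuclear receptor, also passed at 0.81 (limma adjusted p = 0.00344), while its brighter probe was at -0.02.

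Genes with and without a motif core in the promoter had like medians. The 26 genes with an ETS core had a median log2 fold change of -0.10, with 25 of them negative, and the 43 without had -0.13, with 39 negative. With an NRF1 core the median was -0.10 over 16 genes, 15 of them negative, and without it -0.13 over 53, with 49 negative. With a YY1 core it was -0.14 over 11 genes, all of them negative, and without it -0.12 over 58, with 53 negative. These are medians of brightest probes, and the differences between them were not tested.

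How much lower the family lay depended on the scaling between arrays. With the 75th percentile its median was -0.13 and that of all probes 0.01. With quantile normalization the medians were -0.10 and -0.02, and with cyclic loess -0.09 and -0.01. With median scaling they were -0.26 and -0.12, and with no scaling -0.35 and -0.21, so the whole array moved too. The family had 7 probes past the threshold with median scaling, beside 4.79% lower calls of all probes, and 77 with no scaling, beside 22.3%. With the background corrected by normexp on the median signal it had 5 (1.86%), with a trended variance 3 (1.4%) and with array weights 6 (2.4%), all lower. Relative to all probes the family lay between 0.07 and 0.21 lower under every processing tried, and between 80.0% and 99.1% of its probes were negative. Some of these could not change that relative value. Median scaling and no scaling shift each array by a constant, and the analysis of variance and the trended variance use the same log2 fold changes. All of them gave the -0.13 of the main fit.

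**Figure D5:**
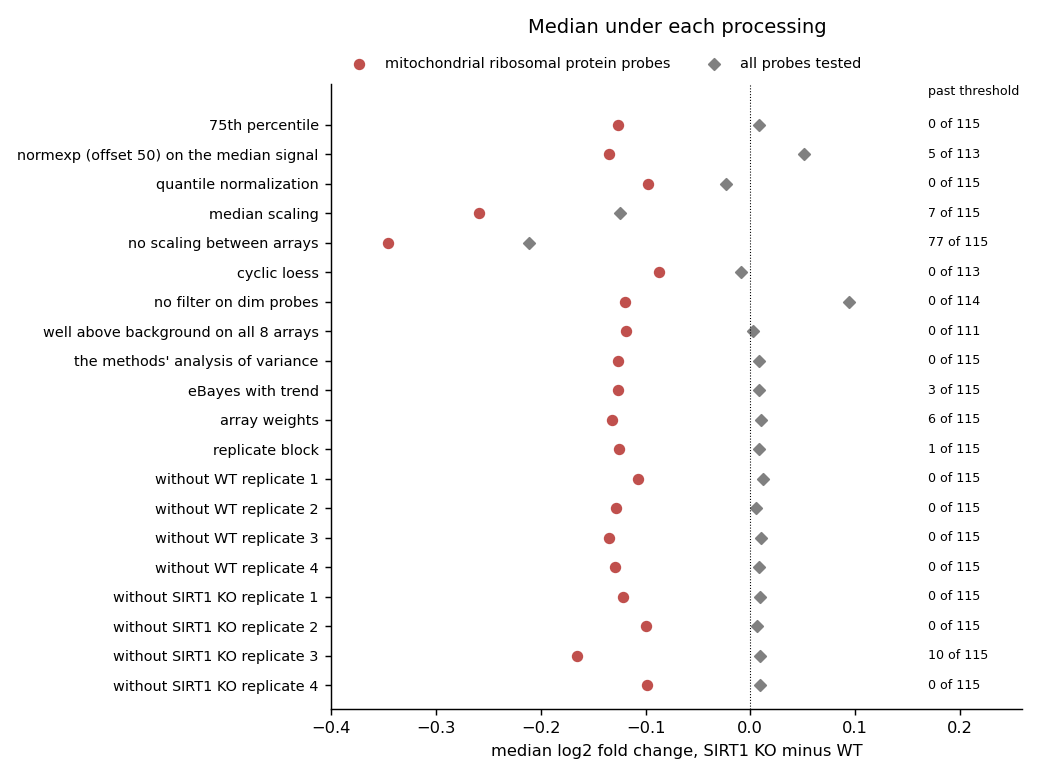
Median log2 fold change (horizontal axis, SIRT1 KO minus WT) of the mitochondrial ribosomal protein probes (red) and of all probes tested (grey) under each processing (vertical axis), with the number of family probes past an adjusted p of 0.05 at the right. The red point lies left of the grey one in every row, and the number past the threshold runs from 0 to 77, the latter with no scaling between arrays.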

How the data were processed

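RNA of 8 E18.5 hearts was measured on one-color Agilent arrays. The authors deposited, per array, the spot intensity written by Feature Extraction (12.0.0.7 in the file headers, version 12 in the submitters' processing notes), background-subtracted and not scaled between arrays, and a value table whose deposited intensity equals it in 100% of spots. Here control and outlier spots were left out, log2 was taken of the deposited intensity, the 75th percentile of all spots was subtracted, and spots of a probe were averaged. Accessions were matched to RefSeq names (GRCm38.p6), which named 68.5% of probes. Probes well above background on at least 4 arrays were tested across genotypes with limma 3.58.1 in R 4.3.3 (lmFit, eBayes) and Benjamini-Hochberg adjustment over all 25615. Each array holds 1 heart, and the number of arrays limits precision. Tables and plots used Python 3.11.15, numpy 2.4.6, pandas 2.3.3 and matplotlib 3.10.9. The paper names Partek analysis of variance, an alternative here, without giving its factors.

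Members and lists were chosen with earlier results of these data known. Named are probes past the threshold, the 5 most positive and 5 most negative, probes without overlap with all probes of their gene where signs differ, genes tied to cardiomyopathy, the decoding site or the stalk, and, of the list of 100 genes, those past the threshold, those of smallest p per group and a few regulators. Probes outside this rule (among them Mrpl46, Mrpl58, Mrps5, Mrps7, Mrps11, Gfm1, Yy1 and the second probe of Mrps6) were chosen after their values were seen. On simulated arrays of 25535 probes with 200 changed by a log2 fold change of 1, 79.5% were recovered, 100% of them in the right direction, and 4.79% of calls were false. That change is larger than any in the family (-0.46 to 0.26), and the simulated noise was independent between probes and held no slide difference. These rates therefore do not tell how well differences of the family's size would be found. Alternatives covered background, scaling, filter, test, variance model, block, probe and each heart left out. With 1 genotype on each slide, slide was no term of any fit.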

Additional observations from a re-analysis of the deposited data

Results flagged for a closer look

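In 8 of the 82 groups of 4 hearts examined, 1 heart lay so far from the next that the gap took most of the range, and chance alone gives about 1 in 20 groups. As a share of the range, the gap was 0.896 for the dimmer Mrpl11 probe (A_52_P350022) in SIRT1 KO, where replicate 1 was low. It was 0.961 for the brightest Mrpl40 probe in WT, where replicate 3 was low, and 0.841 for Mrpl42 (A_51_P410892) in WT, where replicate 2 was high. It was 0.846 for the dimmest Mrpl44 probe (A_52_P668030) in WT, where replicate 2 was low. For Mrps22 it was 0.881 in WT, where replicate 4 was low, and 0.899 in SIRT1 KO, where replicate 3 was high. For the second Mrps23 probe (A_51_P338542) it was 0.831 in SIRT1 KO, where replicate 3 was high. The median deviation of the large subunit probes had a gap of 0.895 in WT, where replicate 1 was highest at 0.03 and the others lay between -0.0098 and -0.0054.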

How the results depend on the processing

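Under each alternative the family's median stayed negative. The count of its probes past the threshold was 0 with quantile normalization, cyclic loess, no filter on dim probes, the filter on all 8 arrays, the methods' analysis of variance and 1 probe per gene. It was 5 with normexp (offset 50) on the median signal, 7 with median scaling, 77 with no scaling, 3 with eBayes with trend, 6 with array weights and 0 to 10 with 1 heart left out, the 10 without SIRT1 KO replicate 3. The median was -0.26 with median scaling, -0.35 with no scaling and -0.17 to -0.10 with 1 heart left out. Genes of the translation list past the threshold were 2, and 4 with normexp, 4 with median scaling, 37 with no scaling, 1 with no filter, 1 with the methods' analysis of variance and 1 to 2 with a heart left out. The share of all probes called lower was 0.91% in the main fit, 1.86% with normexp, 4.79% with median scaling and 22.3% with no scaling. It was 0.26% with no filter, 0.43% with analysis of variance and 0.32% to 1.72% with a heart left out. Over all probes 1250 passed, and 546 with analysis of variance, 2695 with normexp, 2277 with array weights, 1904 with median scaling, 6352 with no scaling and 657 to 1825 with a heart left out. The share of these that was higher in SIRT1 KO was 81.4%. It went to 70.5% under cyclic loess, 63.9% under quantile normalization, 35.5% under median scaling and 10.1% unscaled.

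With the replicate number as a block, 1 probe of the family (Mrps23, adjusted p = 0.0424 from limma) passed, where 0.921% of all probes did so lower, and 1 list gene. That gene was Gars (limma adjusted p = 0.0201), while Tfb1m no longer passed (limma adjusted p = 0.0576). Same-numbered hearts correlated at 0.20, 0.21, 0.06 and 0.14, so the numbers were not taken to pair them, although each heart correlated best with its own number, a hint from the data and not the design.

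Of the 59 probes named by rule, 47 kept their direction under every alternative, and the cause of the other changes was not tested. With no scaling, the log2 fold change was -0.10 for the dimmer Mrpl17 probe, -0.032 for Mrps25 (A_51_P286242), -0.049 for Mrps33 (A_52_P342896), -0.043 for Mrps36 (A_51_P190697), -0.042 for Mtfmt, -0.13 for Polrmt, -0.11 for Dap3 and -0.14 for Gabpa. Median scaling gave -0.013 for that Mrpl17 probe, -0.046 for Polrmt, -0.027 for Dap3 and -0.057 for Gabpa. Quantile normalization gave -0.035 for the Mrpl17 probe and 0.011 and 0.0061 for the Mrpl3 probes A_52_P606303 and A_52_P480373, and cyclic loess gave -0.012, 0.0070 and 0.0072 for the same probes. Normexp gave 0.21 for Mrpl11 (A_52_P350022) and 0.028 for Mrpl57 (A_51_P168219). With 1 heart left out, the first of these Mrpl3 probes ran from -0.075 to 0.025, positive without SIRT1 KO replicate 4, the second from -0.062 to 0.011, positive without that heart or WT replicate 3, and Polrmt from -0.014 to 0.17, negative without WT replicate 2. The value table holds the same intensities, so it gave no new values. Normexp on the mean signal was not run. Signal near background limits the dim probes of Mrpl11, Mrpl17, Mrpl41 and Mrpl57.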
